A study of Mus musculus with 8 samples.

Results

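Cytosolic ribosomal protein genes encode the proteins of the small and large ribosomal subunits. The members were the protein-coding genes of chromosomes 1 to 19 of the mouse mm10 build whose symbol is Rps or Rpl followed by a number, with an optional letter or l, together with Rplp0, Rplp1, Rplp2 and Rpsa. Rps6k kinases and names ending in -ps and a number, which mark pseudogenes, were left out. This gave 77 of 20807 coding genes, 30 of the small subunit and 47 of the large subunit. The rule used symbols only and no measured value.

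Ribosomal proteins assemble with ribosomal RNA in the nucleolus, and nearly every cell type needs them in matched amounts. Their genes are among the most strongly transcribed by RNA polymerase II, typically from short, GC-rich promoters, and many hold small nucleolar RNAs in their introns. Their transcripts usually start within a run of pyrimidines, the terminal oligopyrimidine tract, through which mTOR controls their translation. SOX9 is a transcription factor of the SOXE group that is expressed in astrocytes and ependymal cells of the adult cord.

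SOX9 was mapped by CUT&Tag, in which antibodies bring a transposase to a chromatin protein so that nearby DNA is cut into sequenced fragments. Nuclei of WT mice (C57BL/6, adults of both sexes) were sorted on the DNA dye 7AAD from short segments of spinal cord, either around a thoracic contusion 1 day post injury (1 dpi) or at the same level of uninjured mice. Each condition had a male (M) and a female (F) sample, and 20% of the nuclei of each sample were processed without the SOX9 antibody as secondary-only controls, which gave 8 libraries in 4 groups of 2. The study pooled a few animals per condition in its sequencing experiments and gives no separate number for a CUT&Tag library. The p-values therefore measure the spread between the M and F samples of a condition. That spread mixes sex, animal and technical differences, which cannot be told apart. The samples were bulk, without a label for cell type.

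A level is the mean coverage of a window divided by the mean coverage per base of chromosomes 1 to 19 of the same library, so that 1 is the genome average. The SOX9 libraries held 1824332 (M) and 7068156 (F) fragments on these chromosomes without injury and 2463775 (M) and 2317198 (F) at 1 dpi. The controls held 22300 (M) and 45472 (F) without injury and 51460 (M) and 10664 (F) at 1 dpi. The uninjured F library stood apart. Its median start-site level over all coding genes was 4.60, against 2.79 in the uninjured M library and 3.58 (M) and 3.20 (F) at 1 dpi. Values are therefore also given over the coding median of each library.

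Ribosomal protein genes had high coverage at their start sites in every SOX9 library. In windows of 1 kb to each side of the annotated start, their median level was 6.91 (M) and 12.3 (F) without injury and 9.03 (M) and 7.94 (F) at 1 dpi. Over the coding median of the same library these medians were 2.48, 2.67, 2.52 and 2.48 in that order. The position of the set among coding genes was therefore alike in libraries whose levels differed. Of the 77 members, 62 (80.5%) lay above the coding median in all 4 SOX9 libraries, compared with 37.9% of all coding genes. Above the 75th percentile in all 4 libraries lay 27 members and 15.9% of coding genes, and above the 90th percentile 10 members and 5.69% of coding genes.

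Coverage formed a peak centred on the start. In bins of 50 bp, the highest mean over the members was 15.9 (M) and 32.7 (F) without injury and 23.9 (M) and 19.3 (F) at 1 dpi, always within 100 bp of the start. The flank from 2 to 3 kb upstream had mean levels of 2.3, 3.18, 2.56 and 2.73 in that order of libraries. The peak of the members stayed above that of other coding genes, whose highest bins were 7.84, 17.7, 11.9 and 9.27. At 50% of its height the members' peak was 750, 700, 750 and 800 bp wide, and the peak of other genes 1050, 700, 900 and 1000 bp.

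**Figure D1:**
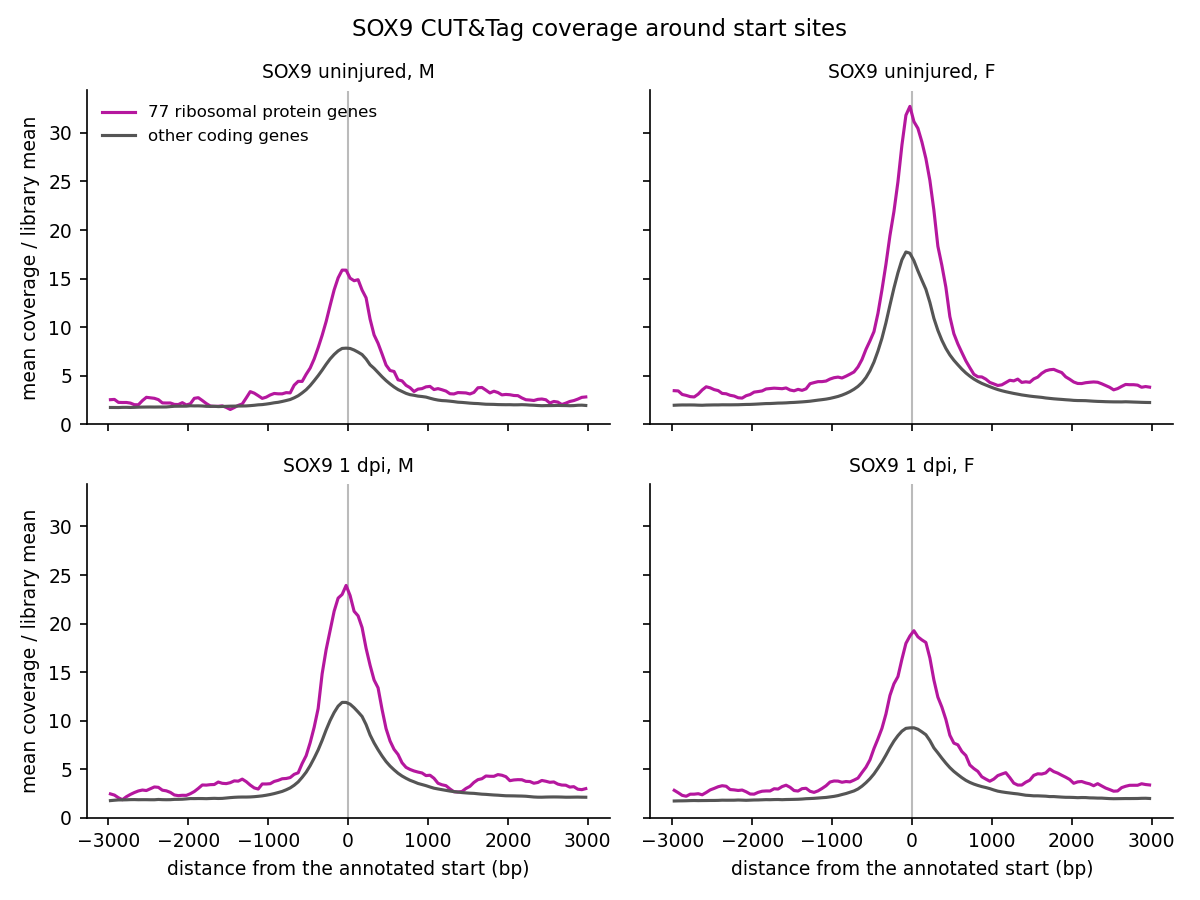
Mean coverage over the library mean (y axis) against distance from the annotated start in bp (x axis), for the 77 ribosomal protein genes (magenta) and other coding genes (grey), with a panel for each SOX9 library. The members reach 15.9 and 32.7 in the uninjured M and F libraries and 23.9 and 19.3 in the M and F libraries at 1 dpi, above the other coding genes in each panel.

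The highest start-site level belonged to Rps19, a small subunit protein needed to mature the small subunit's ribosomal RNA and the gene most often mutated in Diamond-Blackfan anaemia. Rps19 lies on chromosome 7 from 24884371 to 24889806 and had levels of 18.2 (M) and 45.0 (F) without injury and 48.8 (M) and 26.7 (F) at 1 dpi. These rest on 27, 240, 90 and 50 fragments, and place the gene at percentiles 97.4, 98.4, 99.5 and 98.6 of coding genes. Its 2 conditions overlapped, with means of 31.6 ± 18.9 and 37.7 ± 15.6 (SD, n = 2 each).

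Rpl13a, a large subunit protein known for a role in interferon-induced translational control outside the ribosome, followed with 15.2 (M) and 37.7 (F) without injury and 29.9 (M) and 19.9 (F) at 1 dpi. Its highest level was in the uninjured F library, and the conditions overlapped. Rpl18, of the large subunit, had 21.4 (M) and 31.0 (F) without injury and 23.2 (M) and 14.9 (F) at 1 dpi. For this gene the annotated start lies 2614 bp upstream of the start of its principal transcript, around which the levels were 5.01, 12.3, 13.2 and 7.66. Rps21, of the small subunit, had 13.7 (M), 27.3 (F), 23.7 (M) and 24.9 (F), and its libraries at 1 dpi lay between the uninjured ones. Chromosome 7 holds 14 of the 77 members (18.2%) and 9.72% of coding genes. The median over the 14 was 2.93, 3.68, 3.27 and 4.08 times the coding median in the order above, and over the other 63 members 2.45, 2.38, 2.2 and 2.40. Coding genes of chromosome 7 as a whole lay below the coding median, at 0.700, 0.622, 0.672 and 0.692.

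At the other end stood copies of ribosomal protein genes with restricted use. The lowest was Rpl39l, a paralogue expressed mainly in male germ cells, with 0.950 (M) and 0.0719 (F) without injury and 0.511 (M) and 0.800 (F) at 1 dpi, each from 1 fragment. Rpl10l, a testis-expressed retrocopy without introns, had 1.47 (M), 0.627 (F), 0.589 (M) and 0.896 (F) from 1 to 3 fragments a library. All but 1 of these levels were below the genome average, and both genes lay below the coding median in every SOX9 library. Rpl3l, the paralogue of Rpl3 in heart and skeletal muscle, had 4.49 (M) and 6.04 (F) without injury and 2.1 (M) and 1.72 (F) at 1 dpi. The uninjured libraries were both above those at 1 dpi. The other paralogues whose symbol ends in l were not low. Rpl36al had 8.18 (M), 16.4 (F), 11 (M) and 9.55 (F), and Rps27l, a p53-inducible copy of Rps27, 7.59 (M), 10.9 (F), 7.82 (M) and 9.47 (F).

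Rpl37a and Rpl17, which encode large subunit proteins of all ribosomes, completed the lowest 5. Rpl37a had 1.32 (M) and 4.92 (F) without injury and 1.64 (M) and 6.45 (F) at 1 dpi, so that both F libraries lay above both M libraries. Rpl17 had 1.08 (M), 3.35 (F), 1.07 (M) and 2.35 (F) at its annotated start. Around the start of its principal transcript, 1919 bp away, the levels were 3.62, 9.26, 9.07 and 8.77. Rpl17 was thus low only at the start of the gene record. The annotated start and that of the principal transcript were over 1 kb apart for 6 members, Rps14, Rpl3, Rps24, Rpl18, Rps2 and Rpl17.

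The stalk of the large subunit, which recruits elongation factors, is built from Rplp0, Rplp1 and Rplp2. Rplp0 had 9.50 (M) and 11.9 (F) without injury and 10.6 (M) and 13.4 (F) at 1 dpi, the narrowest range of these proteins. Rplp2 had 5.72 (M), 18.8 (F), 12.9 (M) and 14.2 (F), and Rplp1 2.36 (M), 8.97 (F), 13.1 (M) and 7.12 (F). For Rplp2 and Rplp1 the uninjured M library was the lowest. Rpl5 and Rpl11 enter the large subunit together with its smallest RNA and can bind Mdm2, which links ribosome assembly to p53. Their levels were moderate, with 4.24 (M), 8.27 (F), 4.84 (M) and 4.04 (F) for Rpl5 and 7.00 (M), 9.15 (F), 6.97 (M) and 5.85 (F) for Rpl11.

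Rpl3 reaches into the centre where peptide bonds form. Its levels were 2.59 (M) and 9.72 (F) without injury and 13.4 (M) and 6.22 (F) at 1 dpi at the annotated start, and 4.87, 17.5, 13.2 and 10.0 at the start of the principal transcript, 8462 bp away. Rpl4 lines the tunnel through which the new peptide leaves, and Rpl23a sits at the mouth of that tunnel. Rpl4 had 2.37 (M), 4.69 (F), 4.05 (M) and 3.35 (F), close to the coding median, whereas Rpl23a had 5.98 (M), 11.8 (F), 14.3 (M) and 9.07 (F). Rpl22, an RNA-binding protein of the large subunit, had 7.21 (M), 11.8 (F), 7.31 (M) and 7.88 (F). For Rpl4 and Rpl22 the uninjured F library was the highest, and for Rpl23a the M library at 1 dpi.

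In the small subunit, Rps2, Rps3 and Rps23 line the path of the mRNA or the decoding site, and Rpsa lies near its exit. Rps23 had 8.46 (M), 14.1 (F), 11.1 (M) and 16.7 (F), and Rps3 9.01 (M), 14.0 (F), 13.0 (M) and 7.38 (F). Rpsa, also known as the laminin receptor, had 8.92 (M) and 7.75 (F) without injury and 8.10 (M) and 5.94 (F) at 1 dpi. Rpsa was thus highest in the uninjured M library, where most members were lowest. Rps2 had 4.31 (M), 4.89 (F), 3.73 (M) and 6.84 (F) at its annotated start and 11.6, 23.4, 19.8 and 11.9 at its principal start. Rps6, which is phosphorylated downstream of mTOR, had 6.63 (M), 14.3 (F), 16.1 (M) and 13.7 (F). Rps27a, which is made as a fusion with ubiquitin, had 6.82 (M), 17.4 (F), 13.0 (M) and 13.6 (F). In both, the conditions overlapped because the uninjured M library was lowest and the uninjured F library lay near or above those at 1 dpi.

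Small subunit genes had a median of 8.02 (M) and 12.5 (F) without injury and 9.42 (M) and 8.30 (F) at 1 dpi, and large subunit genes 6.76 (M), 12.3 (F), 9.03 (M) and 7.93 (F). Over the coding median the small subunit lay at 2.88, 2.72, 2.63 and 2.59 and the large subunit at 2.43, 2.67, 2.52 and 2.48. The small subunit was the higher in each library, by a margin smaller than the differences among its own genes.

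Secondary-only controls had as much of their coverage at these start sites as the SOX9 libraries. The mean level over the 77 windows was 12.5 (M) and 13.2 (F) in the uninjured controls and 12.6 (M) and 17.1 (F) in the controls at 1 dpi, against 7.64 (M), 13.9 (F), 10.9 (M) and 9.37 (F) with the SOX9 antibody. The means of 13.8 ± 2.21 in controls and 10.5 ± 2.66 in SOX9 libraries (SD, n = 4 each) give a ratio of SOX9 over control of 0.755. Over all coding genes the means were 6.55 ± 0.356 and 6.17 ± 1.61. The controls rest on 15, 37, 38 and 13 fragments in the 77 windows, and 65, 50, 46 and 64 members had no control fragment in the 4 libraries. As a share of fragments, the windows held 0.0673% (95% Wilson interval 0.0408% to 0.111%), 0.0814% (0.0590% to 0.112%), 0.0738% (0.0538% to 0.101%) and 0.122% (0.0713% to 0.208%) in the controls. The SOX9 libraries held 0.0518% (0.0486% to 0.0552%) and 0.0876% (0.0855% to 0.0898%) without injury and 0.0717% (0.0685% to 0.0751%) and 0.0625% (0.0594% to 0.0658%) at 1 dpi. These intervals cover counting error only. A SOX9 signal above the control was not detectable over the set at this depth, and for single members the controls hold too few fragments to give a ratio. Of 79 control fragments in these windows that stood alone, 63 (79.7%) shared both ends with some SOX9 fragment, against 0 when shifted by 50 bp. Over the genome the share was 87.0%. The controls are therefore not an independent measure of background here, and the reason was not tested.

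**Figure D2:**
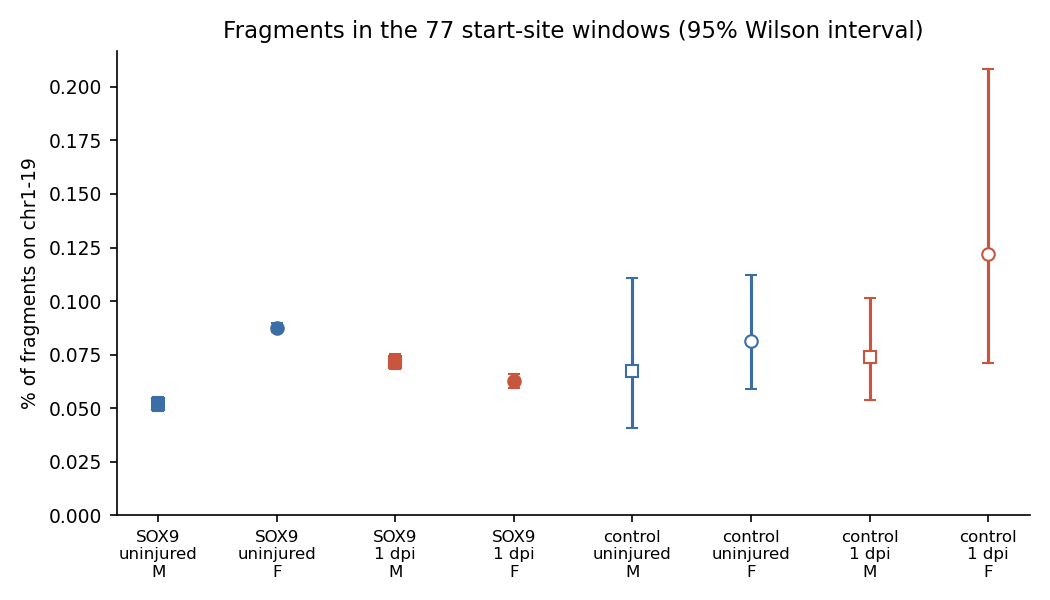
Percent of the fragments on chromosomes 1 to 19 that overlap the 77 start-site windows (y axis) in each library (x axis), filled for SOX9 and open for secondary-only controls, with 95% Wilson intervals as bars. The controls lie between 0.0673% and 0.122% and the SOX9 libraries between 0.0518% and 0.0876%, and the wide control intervals take in most SOX9 values.

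The comparison of 1 dpi with uninjured cords asked whether injury shifted SOX9 coverage at the start sites. None of the 77 members passed limma's test in either direction (adjusted p under 0.05 over 17447 coding windows), and 0 higher and 0 lower members had even an unadjusted p under 0.05. Among all coding windows tested, 1 was higher (0.00573%) and 0 lower (0%), with 155 (0.888%) higher and 169 (0.969%) lower at an unadjusted p under 0.05. At shares this small, a count of 0 among 77 members shows neither likeness to other genes nor a difference from them. Such a difference was not tested. The single call was Gm11361, a predicted gene outside the rule. The unadjusted counts depended on the libraries. In limma at an unadjusted p under 0.05, 9 members were higher and 0 lower without the uninjured F library (7.61% and 0.864% of coding windows). Without the uninjured M library 0 were higher and 3 lower (0.185% and 5.31%), and in a fit of all 8 libraries 0 were higher and 1 lower (2.83% and 3.82%).

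The mean level over the members was 10.8 ± 4.43 in uninjured cords and 10.1 ± 1.09 at 1 dpi (SD, n = 2 each), a ratio of 0.942 within the spread between libraries. The median log2 change over the members was -0.08, and over all coding windows tested -0.07. With levels over the coding median both medians were 0.00 to the 2nd decimal and the ratio was 1.04. The log2 changes of single members ran from -1.24 to 1.00, with standard errors of 0.65 to 0.94 on the log2(level + 0.5) scale. That scale understates changes of low genes. With errors of this size only changes of several-fold could pass.

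Both libraries at 1 dpi lay above both uninjured ones for 2 members (8.41% of coding windows) and below both for 11 (14.9% of coding windows). Over the coding median, a scaling chosen for this count after the data were seen, the counts were 13 (15.5%) and 15 (15.6%). The members' shares of 2.60% and 14.3%, or 16.9% and 19.5% over the coding median, came near the shares of all coding windows except for the 2 on the higher side, a count that depended on the scaling.

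The members with the smallest p-values passed no threshold. On the lower side these were Rpl3l, Rps12, Rps26 and Rpl14. Rpl3l, whose levels are given above, had a log2 change of -1.24 (standard error 0.67, limma unadjusted p = 0.0640, adjusted p = 1.00). Rps12, of the small subunit, had levels of 11 (M) and 8.92 (F) without injury and 7.79 (M) and 3.06 (F) at 1 dpi, with a log2 change of -0.94 (standard error 0.65, limma unadjusted p = 0.149). Rps26, near the exit of the mRNA, had 9.15 (M) and 9.99 (F) and then 6.32 (M) and 3.79 (F), with a log2 change of -0.90 (standard error 0.65, limma unadjusted p = 0.169). In these 3 genes both uninjured libraries were above both at 1 dpi. Rpl14 had 7.91 (M), 13.3 (F), 3.64 (M) and 8.33 (F), with overlapping conditions and a log2 change of -0.84 (standard error 0.65, limma unadjusted p = 0.200).

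On the higher side were Rps15a, Rplp1, Rpl3 and Rps28. Rps15a had levels of 2.47 (M) and 15.5 (F) without injury and 10.5 (M) and 16.7 (F) at 1 dpi, with a log2 change of 1.00 (standard error 0.66, limma unadjusted p = 0.129). For Rplp1 the log2 change was 0.97 (standard error 0.65, limma unadjusted p = 0.137) and for Rpl3 0.78 (standard error 0.65, limma unadjusted p = 0.231). In all 3 the uninjured M library alone was low, and the conditions overlapped for each of them. Rps28 had 2.61 (M) and 6.80 (F) and then 7.74 (M) and 7.44 (F), with a log2 change of 0.76 (standard error 0.65, limma unadjusted p = 0.241), and both libraries at 1 dpi were above both uninjured ones. Over the coding median, Rps15a (unadjusted p = 0.00515), Rplp1 (0.0150), Rpl3 (0.0446) and, on the lower side, Rps12 (0.0416) came under an unadjusted p of 0.05 in limma, and 0 passed after adjustment. These are 3 higher and 1 lower of 77, while 2.27% of coding windows were higher and 1.69% lower by the same rule.

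The sexes moved in opposite directions on the library-mean scale. The median log2 change over the members was 0.31 in M and -0.59 in F, and over all coding windows tested 0.40 and -0.53. At 1 dpi 56 members (72.7%) were higher in M and 12 (15.6%) in F, compared with 68.1% and 23.7% of coding windows. Over the coding median the members' medians were -0.02 in M and -0.09 in F. The uninjured F library held the highest level for 55 of the 77 members (71.4%) and for 55.5% of coding windows, and without it the median log2 change was 0.27, whereas without the uninjured M library it was -0.49. The direction of the set on this scale therefore rested on which uninjured library was used. Whether the change at 1 dpi differed between M and F was not tested, since each such change rests on 1 library per condition.

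Over gene bodies no member passed the test, which with 2 libraries a group does not show that bodies were stable. The mean body level over the members was 4.60 (M) and 7.64 (F) without injury and 6.19 (M) and 6.18 (F) at 1 dpi, with means of 6.12 ± 2.15 and 6.19 ± 0.0118 (SD, n = 2 each) and a ratio of 1.01. Over all coding genes it was 2.42, 2.92, 2.62 and 2.47. The controls had a higher mean body level over the members, 12 ± 3.56 against 6.15 ± 1.24 with the SOX9 antibody (SD, n = 4 each). Of 76 member bodies tested with limma, 0 were higher and 0 lower at an adjusted p under 0.05, as for all 17106 coding bodies (0% each way). At an unadjusted p under 0.05 1 member was lower and 0 higher, against 340 (1.99%) lower and 358 (2.09%) higher coding bodies. That member was Rps26, with body levels of 6.02 (M) and 6.03 (F) without injury and 3.19 (M) and 2.44 (F) at 1 dpi and a log2 change of -0.99 (standard error 0.26, limma unadjusted p = 0.0117, adjusted p = 1.00). The median log2 change of the member bodies was 0.02, and of coding bodies -0.03.

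Beyond 1 kb of the start, exons and introns of the members were covered about alike in the SOX9 libraries. Exons had levels of 2.77 (M) and 4.32 (F) without injury and 3.72 (M) and 3.86 (F) at 1 dpi, and introns 2.84 (M), 3.71 (F), 3.24 (M) and 3.62 (F). The ratios of exon over intron were 0.975, 1.16, 1.15 and 1.07, below the 1.42, 1.65, 1.48 and 1.45 of other coding genes. In the controls the members' exons had 7.75 (M) and 15.7 (F) without injury and 17.2 (M) and 3.74 (F) at 1 dpi, with ratios over introns of 2.21, 2.53, 2.68 and 0.867. In 3 of the 4 controls the exons of ribosomal protein genes thus stood above their introns by more than those of other genes did (1.62, 1.93 and 1.99).

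Other genes of translation and ribosome production had lower medians than the ribosomal protein genes in every SOX9 library, but not always lower means. Translation factors, 65 genes of the Eif and Eef families, had medians of 2.08 (M) and 2.62 (F) without injury and 2.5 (M) and 2.32 (F) at 1 dpi over the coding median. Ribosome biogenesis genes, 49 nucleolar proteins and RNA polymerase I factors such as Ncl, Npm1 and Fbl, had 1.91 (M), 2.36 (F), 2.33 (M) and 1.98 (F). The 78 mitochondrial ribosomal proteins had 1.69 (M), 2.1 (F), 1.87 (M) and 1.47 (F), and so lay below the cytosolic ones in every library. The mean level of the translation factors was 7.53 (M) and 15.8 (F) without injury and 11 (M) and 9.51 (F) at 1 dpi, above the mean of the ribosomal protein genes in 3 of the 4 libraries. High start-site coverage was therefore not particular to the ribosomal protein genes. None of these genes passed limma's test, with 0 higher and 0 lower at an adjusted p under 0.05 and 0 and 0 at an unadjusted p under 0.05 in each of the 3 lists. Their median log2 changes of -0.04, -0.07 and -0.07 lay beside -0.08 for the cytosolic genes. Olfactory receptors, 1128 genes without a role in the cord, had medians of 0, 0.0105, 0 and 0 over the coding median, and 0 of them lay above the coding median in all 4 libraries.

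A list of 7 genes stood close to the set but outside the rule. Fau, a ribosomal protein of the small subunit made as a fusion, had 17.3 (M) and 20.7 (F) without injury and 14.4 (M) and 9.22 (F) at 1 dpi, and the uninjured libraries were both above those at 1 dpi. Rack1, a scaffold protein of the small subunit, had 3.01 (M), 7.80 (F), 7.26 (M) and 5.89 (F). The paralogue Rpl22l1 had 2.23 (M), 6.33 (F), 7.02 (M) and 5.29 (F), and the list also held Rpl7l1, Rsl24d1 and Rsl1d1. All 7 were above the coding median in 3 of the 4 libraries and 4 in the uninjured M library, and 0 of the 7 passed limma's test in either direction, 0 also at an unadjusted p under 0.05.

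**Figure D3:**
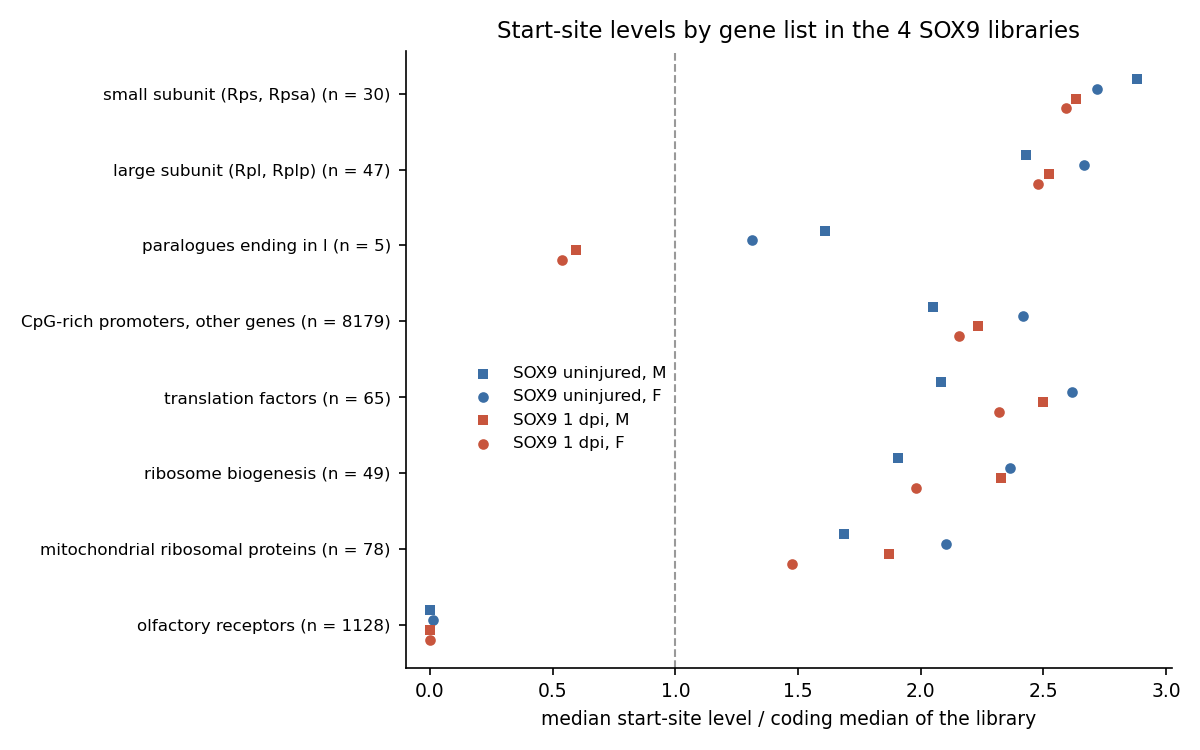
Median start-site level of each gene list over the coding median of the same library (x axis, 1 is the coding median, dashed), with squares for M, circles for F, blue for uninjured and red for 1 dpi. Small and large subunit genes lie at 2.43 to 2.88, mitochondrial ribosomal proteins at 1.47 to 2.1 and olfactory receptors near 0.

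The start sites were CpG-rich. Within 500 bp of the start, 54 of the 77 (70.1%) had a CpG content of at least 0.6 of that expected and at least 55% GC, compared with 39.6% of coding genes. These 54 had medians of 2.66 (M), 3.11 (F), 2.9 (M) and 2.7 (F) over the coding median, and the other 23 members 2.1, 1.86, 1.73 and 2.1. For 8179 other coding genes with CpG-rich starts the medians were 2.05, 2.42, 2.24 and 2.16. The CpG-rich members thus lay above other CpG-rich starts in every SOX9 library. In the controls their mean levels were also higher, at 14.5 (M) and 15.1 (F) without injury and 12.8 (M) and 18.8 (F) at 1 dpi. Other CpG-rich starts had means of 11.1, 11.5, 9.92 and 11.2 in these controls. The ribosomal protein genes were also short, with a median length of 3368 bp against 17629 bp over coding genes. A window of 1 kb to each side thus takes in much of the body. Small nucleolar RNAs lay within 27 of the members (35.1%), 54 of these RNAs in all, and within 1.17% of coding genes. Hosts had medians of 2.35, 2.59, 2.37 and 2.41 over the coding median and non-hosts 2.63, 2.79, 2.85 and 2.65. The window of 16 members (20.8%) held the start of another coding gene, compared with 12.9% of coding genes, and their coverage cannot be told apart from that of their neighbour. Without such a neighbour the median over the coding median was 2.51, 2.73, 2.64 and 2.48.

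The order of the members was similar between libraries. Across the 77 genes, which share each library's depth and are not independent replicates, Pearson's r of the log2 levels was highest between the uninjured F library and the M library at 1 dpi (0.883) and lowest between the uninjured M and the F library at 1 dpi (0.644). Between the uninjured libraries it was 0.777 and between those at 1 dpi 0.806. The same 4 values over 17447 coding windows were 0.898, 0.758, 0.818 and 0.831. The top 10 of all 4 libraries had 5 members in common, and the bottom 10 had 4.

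Promoters of 300 bases, 250 before and 50 after the RefSeq start on GRCm38.p6, were found for 57 members (69 promoters) and searched on both strands unless stated. The ETS motif CCGGAAG lay in 25 of the 69 (36.2%) and in 8.86% of all 32851 promoters. A terminal oligopyrimidine tract lay in 29 (42.0%), against 18.3% of all. It was a C within 5 bases of the start followed by at least 4 C or T on the strand that matches the transcript. The SP motif GGGCGG lay in 40 (58.0%), against 35.7%, and the YY1 motif AAGATGGC in 7 (10.1%), against 2.75%. The 7 promoters with a YY1 motif belong to 5 genes. These 4 motifs were held by a larger share of ribosomal protein promoters than of all promoters. The SOX motif ACAAAG or ACAATG lay in 15 (21.7%), against 28.6% of all, the AP-1 motif TGAGTCA or TGACTCA in 2 (2.9%), against 5.20%, and TATAAA, on the plus strand only, in 3 (4.35%), against 8.32%. The 12 genes with a SOX motif had a median of their mean SOX9 levels of 9.79, compared with 8.31 for those without, and the 34 with an SP motif 11.3, compared with 7.00. Those with an ETS motif had 9.10, compared with 8.56, and those with a pyrimidine tract 9.56, compared with 7.79. Genes with the other motifs were lower than those without, at 8.56 and 8.80 for YY1, from 5 genes with the motif. For AP-1 the medians were 6.83 and 8.96, from 2 genes, and for TATAAA 6.15 and 8.80, from 3. These levels are from windows around the annotated start. The searched promoters of Rpl18, Rps2, Rps24 and Rps10, and a promoter each of Rpl22 and Rpl3l, start over 1 kb from it. For these promoters the level is not that of the sequence searched. A match describes letters and is not a bound site.

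To show what high and low start sites look like, the RefSeq promoters of 4 genes with the highest levels and 3 with the lowest are printed 5′ to 3′, with every match to the searched motifs in capitals. They were taken in the order of the mean level among genes whose promoter starts within the window. The high ones carry an SP match as CCGCCC (Rps19), a SOX, 2 SP, a YY1 and a pyrimidine tract match (Rpl13a), a SOX, 2 ETS, an SP and a pyrimidine tract match with the last 2 overlapping (Rps21), and an ETS match (Rps25). GC content was 60.3%, 60.3%, 60.7% and 54.3%.
Rps19, chr7:24884342-24884641, plus strand: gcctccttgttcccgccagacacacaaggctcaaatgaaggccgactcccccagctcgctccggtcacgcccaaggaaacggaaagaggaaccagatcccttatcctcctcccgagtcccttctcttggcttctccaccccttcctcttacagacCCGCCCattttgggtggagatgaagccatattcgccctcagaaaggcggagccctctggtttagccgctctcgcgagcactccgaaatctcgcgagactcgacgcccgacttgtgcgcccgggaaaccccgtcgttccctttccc
Rpl13a, chr7:45128696-45128995, minus strand: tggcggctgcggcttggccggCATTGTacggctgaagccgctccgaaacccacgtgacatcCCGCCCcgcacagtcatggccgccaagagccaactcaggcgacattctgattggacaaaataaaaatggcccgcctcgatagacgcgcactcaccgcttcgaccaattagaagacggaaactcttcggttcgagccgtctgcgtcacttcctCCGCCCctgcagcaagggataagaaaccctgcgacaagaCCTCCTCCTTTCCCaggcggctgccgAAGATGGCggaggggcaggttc
Rps21, chr2:180257129-180257428, plus strand: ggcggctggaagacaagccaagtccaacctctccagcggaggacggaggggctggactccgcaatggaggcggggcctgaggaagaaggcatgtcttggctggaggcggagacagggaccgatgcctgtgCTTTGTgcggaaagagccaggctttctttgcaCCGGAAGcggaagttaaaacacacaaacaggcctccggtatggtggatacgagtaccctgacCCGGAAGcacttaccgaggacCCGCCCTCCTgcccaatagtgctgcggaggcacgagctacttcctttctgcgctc
Rps25, chr9:44407464-44407763, plus strand: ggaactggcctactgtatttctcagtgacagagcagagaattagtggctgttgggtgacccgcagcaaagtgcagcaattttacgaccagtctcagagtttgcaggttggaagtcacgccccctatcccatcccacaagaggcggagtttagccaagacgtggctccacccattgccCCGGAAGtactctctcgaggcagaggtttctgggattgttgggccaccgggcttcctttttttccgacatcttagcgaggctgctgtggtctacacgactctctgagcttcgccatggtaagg
The low ones carry 0 matches (Rpl37a), an SP and a SOX match (Rpl10l) and 2 ETS matches (Rpl39l), with 52.3%, 52.0% and 52.7% GC. None of these 3 starts in a pyrimidine tract by this rule.
Rpl37a, chr1:72711010-72711309, plus strand: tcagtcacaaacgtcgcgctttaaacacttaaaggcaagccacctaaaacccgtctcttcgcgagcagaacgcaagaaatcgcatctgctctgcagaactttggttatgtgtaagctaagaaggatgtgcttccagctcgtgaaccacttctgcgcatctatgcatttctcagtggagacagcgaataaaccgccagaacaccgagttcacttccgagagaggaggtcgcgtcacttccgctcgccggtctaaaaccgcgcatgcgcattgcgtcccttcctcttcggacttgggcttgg
Rpl10l, chr12:66284352-66284651, minus strand: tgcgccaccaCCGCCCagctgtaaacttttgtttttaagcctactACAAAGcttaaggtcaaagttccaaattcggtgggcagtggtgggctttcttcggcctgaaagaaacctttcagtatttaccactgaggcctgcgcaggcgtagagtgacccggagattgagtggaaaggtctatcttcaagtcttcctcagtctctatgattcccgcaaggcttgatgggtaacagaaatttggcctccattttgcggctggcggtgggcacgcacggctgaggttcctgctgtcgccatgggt
Rpl39l, chr16:10169978-10170277, plus strand: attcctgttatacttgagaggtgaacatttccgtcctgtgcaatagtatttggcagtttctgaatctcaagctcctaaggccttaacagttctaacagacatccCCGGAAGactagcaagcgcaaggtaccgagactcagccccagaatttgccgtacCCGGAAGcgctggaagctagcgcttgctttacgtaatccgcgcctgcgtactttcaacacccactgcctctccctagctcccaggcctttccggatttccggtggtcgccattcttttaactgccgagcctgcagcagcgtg

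Start-site levels of cell type markers, which are not expression, were read to see which tissue the libraries reflect. Oligodendrocyte lineage genes (Mog, Mag, Mobp, Sox10, Olig1, Olig2 and Pdgfra) had a median of 13.5 (M) and 14.6 (F) without injury and 16.3 (M) and 11 (F) at 1 dpi, and 6 of the 7 lay above the coding median in every SOX9 library. Sox10, the highest by the mean of the 4 libraries, had 28.4 (M) and 31.3 (F), and then 23.1 (M) and 12 (F), while Pdgfra was listed at 0 (M) and 0.362 (F), and then 1.04 (M) and 1.69 (F). Neuronal genes (Rbfox3, Snap25, Syt1 and Tubb3) had medians of 6.61, 11.6, 8.52 and 5.00, and 3 ependymal genes (Foxj1, Rsph1 and Ccdc153) 4.81, 11.5, 6.65 and 8.50. Within these lists Rbfox3 (3.13, 3.69, 3.13 and 2.0) and Ccdc153 (2.25, 4.39, 2.12 and 1.26) were the lowest. Astrocyte genes (Gfap, Aqp4, Slc1a2, Slc1a3, Aldh1l1, Gja1 and Sox9) were lower, with medians of 2.24, 2.47, 2.39 and 1.42, led by Slc1a2 (13.3, 12.7, 18.1 and 10.6). Aqp4 and Gja1 were listed at 0 in the uninjured M library, and Aqp4 also in the F library at 1 dpi. Microglial genes (C1qa, C1qb, Cx3cr1, P2ry12 and Tmem119) had medians of 1.52, 1.87, 2.72 and 0.947, endothelial genes (Cldn5, Pecam1 and Flt1) 0.734, 1.97, 1.34 and 3.19, and genes of infiltrating immune cells (Ptprc, S100a8, S100a9 and Ly6g) 0.748, 0.204, 0.836 and 0.692, with S100a9 listed at 0 in all 4. P2ry12, S100a8 and S100a9 fell under the level filter and were not tested. Of the markers tested in limma's fit 0 passed in either direction, and C1qa alone had an unadjusted p under 0.05, on the higher side. Whether the mix of cells had a part in the levels of ribosomal protein genes was not tested, and fewer cells of a type and less signal per cell cannot be told apart in bulk samples.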

How the data were processed

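The authors demultiplexed reads with deML, aligned them with Bowtie2 2.5.4 to mm10, removed duplicates with Picard 3.4.0 and called peaks with SEACR 1.3 (versions from the submitters' processing notes). The deposited values are the coverage signal of each library in whole numbers without depth scaling. In 20283253 stretches, 0 passed a chromosome end of GRCm38.

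Mean coverage over the library mean was computed in Python 3.11.15 (numpy 2.4.6, scipy 1.17.1, pandas 2.3.3, matplotlib) for GENCODE M21 coding genes. Fragments were rebuilt from rises and falls of the coverage. Because the values are coverage, limma 3.58.1 (R 4.3.3, mean-variance trend) was fitted to log2(level + 0.5) of the 4 SOX9 libraries, for windows with a mean level of at least 0.5, with Benjamini-Hochberg adjustment over all coding genes. On simulated data the fit made no false calls but missed most of the changes put in. The simulated libraries shared the same window means apart from those changes. They had no library-wide shift such as that of the uninjured F library. The lack of false calls therefore does not carry over to these data. limma gives the p-values, and members were given no test as a set.

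Genes named are among the highest and lowest members by mean SOX9 level, the 4 smallest p-values in each direction, paralogues ending in l and members picked by role. The members and lists were chosen with earlier results of these data known. Gm11361, Rps25 and the pseudogenes were named after their values were seen. Alternatives covered window, start site, scaling, depth, pseudocount, filter, model, paralogues and each library left out.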

Additional observations from a re-analysis of the deposited data

Results flagged for a closer look

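The summed start-site level of the ribosomal protein genes moved in opposite directions in the sexes, with a ratio of 1 dpi over uninjured of 1.43 in M and 0.674 in F. The median over all coding start sites went the same way, with log2 changes of 0.40 in M and -0.53 in F, so the split is not particular to these genes. Each value compares 1 library with 1 other, so the gap was not tested. Over the coding median the ratios were 1.11 (M) and 0.969 (F), a smaller gap.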

How the results depend on the processing

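The count of 0 higher and 0 lower ribosomal protein start sites held under all 18 alternatives each, and the count of 62 above the coding median ran from 59 to 69. The ratio of summed start-site levels, 0.942, ran from 0.730 to 1.33, both extremes with an uninjured library left out, and stayed within the spread between M and F. So did the median log2 change of -0.08, which ran from -0.49 to 0.27, and the gene body ratio of 1.01, from 0.810 to 1.34. All 3 took either direction depending on which uninjured library was left out. The SOX9 over control ratio of 0.755 ran from 0.730 to 0.819 with a control left out, and was not computed without a SOX9 library.

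The 1 higher coding window became 2 with principal starts, 6 over the coding median (with 1 lower instead of 0) and 0 with windows of 250 bp to each side, a filter at 2, no filter, all 8 libraries, thinned libraries, trimmed-mean scaling, or any SOX9 library left out (0 to 0). The cause was not tested. The median of the members minus that of coding windows, -0.01, was -0.0540 with windows of 250 bp to each side and -0.0496 to 0.0119 with a library left out. A library left alone in its group was assumed to vary like the others. The replicate block (sex) gave 0 higher and 0 lower members, and the coding count stayed at 1. The letters give sex only, and the deviations of the M libraries correlated at -0.10 across windows, so no block was used. Counts of non-overlapping members over the coding median, chosen after seeing the data, are in the report. No alternative was computed for the count of changed gene bodies. Depth limits single members, which held a median of 12 fragments a window in the shallowest SOX9 library and 0 in each control.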

Other observations

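Processed pseudogenes named for the members, which are spliced copies of their transcripts, carried more coverage in some libraries than the members' gene bodies. These libraries were the uninjured F control, where the bodies had a mean level of 15.2, and the M control at 1 dpi (14.9). The SOX9 F library at 1 dpi (6.18) was also among them. In the remaining libraries the pseudogenes lay below the bodies. Over 242 such loci the level was 2.1 (M) and 1.43 (F) without injury and 3.34 (M) and 8.56 (F) at 1 dpi with the SOX9 antibody, and 3.06 (M), 71.0 (F), 144 (M) and 6.53 (F) in the controls. Other processed pseudogenes, 8682 in number, had 0.911, 0.693, 0.905 and 1.46 in the SOX9 libraries and 1.06, 5.02, 10.5 and 1.18 in the controls. These loci were highest in the controls of uninjured F and of M at 1 dpi, where they held 177 and 352 fragments. In these 2 controls 58 and 79 of the 242 loci held any fragment, and the median locus was at 0 in all 4 controls. With the SOX9 antibody the median locus was at 0 (M) and 0.889 (F) without injury and 0.760 (M) and 2.22 (F) at 1 dpi.

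The highest of them was Rps19-ps6, on chromosome 12 from 110898114 to 110898551, with 163 (M) and 39.9 (F) without injury and 256 (M) and 629 (F) at 1 dpi. In the controls it had 0 (M) and 5601 (F), and then 13018 (M) and 658 (F), from 0, 44, 99 and 2 fragments. Rps18-ps3, on chromosome 8 from 107262793 to 107263248, followed with 26.2, 10.7, 57.3 and 189 in the SOX9 libraries and 408, 2976, 3817 and 453 in the controls, from 2, 27, 37 and 1 fragments there. With the SOX9 antibody both loci were higher at 1 dpi than in uninjured cords of the same sex. The M controls were also higher at 1 dpi, and the F controls, with 2 and 1 fragments at 1 dpi, were lower. The source of this coverage was not tested.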
